A study of Drosophila melanogaster with 24 samples.

Results

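The early zygotic genes that stay on are genes whose RNA rose steeply in wild-type *Drosophila melanogaster* embryos between the first and the second collection and did not fall back by 4.5 to 6 h post egg-laying. They were chosen on the wild-type samples alone. Transcript values were averaged per gene symbol and then over the 3 wild-type samples of each time point, and a gene was taken when its mean rose by at least 1.5 on the log2 scale from 0 to 1.5 h to 1.5 to 3 h, reached at least 10 at 1.5 to 3 h, and at neither later time point lay 0.5 or more below that level. The rule selected 149 of 14042 genes. It did not use the *brat* mutant samples, which are described here.

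RNA was measured on custom NimbleGen expression arrays in 24 samples, 3 biological replicates of each of 8 groups. The *brat* mutant embryos came from mothers of the genotype *brat*fs1/*Df(2L)TE37C-7*, which carry a missense allele of *brat* over a deletion of the locus. Their fathers were brothers of these females, and most carried one of the 2 *brat* chromosomes over the balancer *CyO*. Embryos of *w1118* flies, which carry neither *brat* allele, were the wild type. Each genotype was sampled in 4 consecutive windows of 1.5 h, the first starting at egg-laying and the last ending at 6 h. The mutant embryos were of mixed zygotic genotype, and an effect of *brat* cannot be told apart from other differences between the mutant stocks and *w1118*. Whole embryos were measured, so fewer cells of a type and less RNA per cell cannot be told apart. All values are log2 levels in the authors' normalization, in which a difference of 1 is a doubling.

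A *Drosophila* embryo begins development on RNA and protein laid down by its mother, while its own genome is almost silent. A few genes are transcribed in the rapid nuclear cycles, and the main wave of zygotic transcription comes when the nuclei have reached the surface and cells form around them. Many of the first zygotic genes are on for a short time only, whereas others stay on as the germ layers, segments and neural precursors are laid out. Brain tumor (BRAT) is a maternally supplied RNA-binding protein that promotes repression and decay of maternal mRNAs in this window.

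The groups were checked first. *brat* RNA itself was lower in mutant embryos at 0 to 1.5 h by 0.67 ± 0.18 (log2, ± SE; limma adjusted p = 0.0469), with values of 13.19 to 13.40 against 13.79 to 14.24, and at the later time points the groups overlapped. The mothers carried a missense allele, which need not change the RNA, over a deletion of the locus. The part of the deletion in the lower early level was not tested, and the later overlap does not check the labels further. Sample medians over all transcripts lay between 8.70 and 8.83. Of 20 maternal mRNAs listed as stage markers, the median level was 12.75 ± 0.15 in *brat* mutant and 12.88 ± 0.06 in wild-type embryos (SD, n = 3) in the first collection, and 10.60 ± 0.24 and 11.22 ± 0.17 in the second. The part of embryo age in the results below was not tested. Markers of follicle cells and adult females were at 7.93 to 8.30 in median level in every sample, near the lowest values of the array, and 0 of the 15 were expressed.

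In wild-type embryos the median level over the 149 genes was 8.95 in the first collection, 11.27 in the second, 12.67 in the third and 12.54 in the last. These values follow from the rule and are a description only. The rise from the first to the second collection ran from 1.51 to 3.89, with a median of 2.27, and 140 of the genes lay higher still at 3 to 4.5 h. Just inside the thresholds were a *Suppressor of Stellate* repeat RNA (*CG41533*, 0.0047 above the level of 10), *Galphas* (*G-salpha60A*), which encodes a G protein subunit (rise 1.51), the cuticle gene *Lcp65Ag1* (rise 1.52), *CG8929* (rise 1.52) and *tinc* as the array's *CG31246* probe set (0.0337 above it). Just outside were *CG12011* (rise 1.49), *CG13894* (rise 1.49), the anion transporter *Ndae1* (change of −0.52 by 4.5 to 6 h), *Lcp65Ag3* (rise 1.46) and the protease *rho* (rise 1.46). On the array 114 of the members had 1 transcript and 35 had several. The 149 symbols stand for 146 current genes, because *sli*, *tinc* and *corn* each had a second probe set under an older symbol.

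In *brat* mutant embryos the same genes also came on. Over the 149 genes, the median level of the 3 mutant samples was 10.28, 9.90 and 10.32 in the first collection, 11.91, 11.87 and 12.03 in the second, 12.46, 12.70 and 12.18 in the third, and 12.30, 12.36 and 12.08 in the last. The corresponding wild-type medians were 9.28, 8.94 and 8.94, then 11.43, 11.14 and 11.41, then 12.74, 12.61 and 12.62, and last 12.72, 12.49 and 12.53. The mutant samples thus lay above all wild-type samples at the first and second time points, overlapped with them at the third, and lay below them at the last. The mutant curve began higher and ended lower than the wild-type curve.

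**Figure D1:**
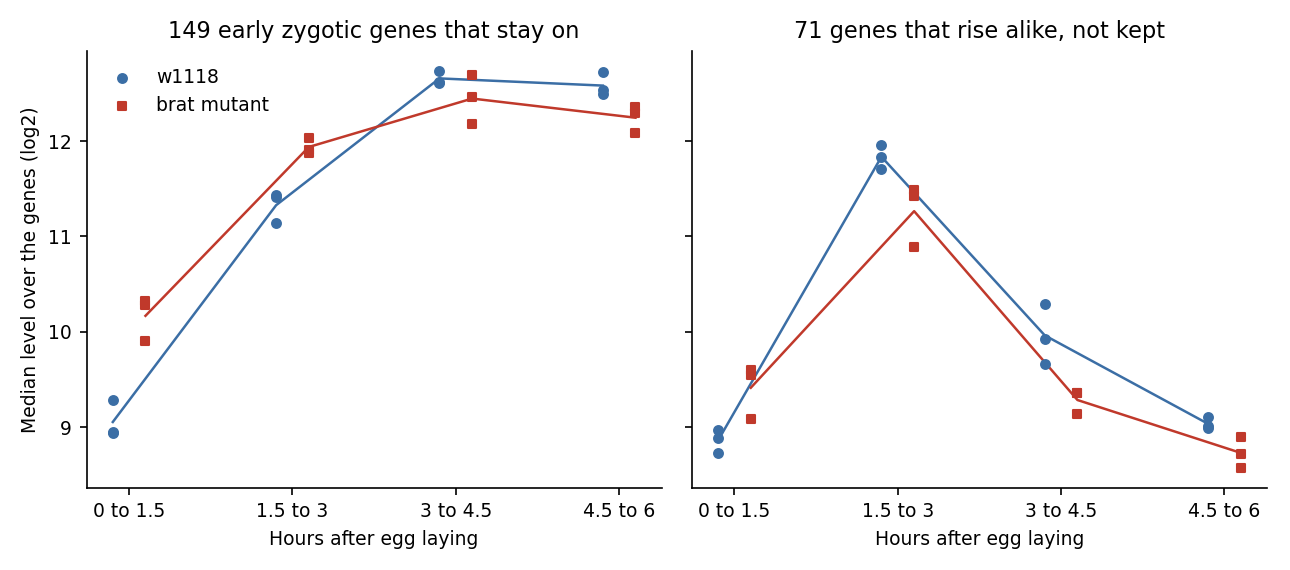
Median level (log2, y axis) over 149 early zygotic genes that stay on (left) and over 71 genes that rose by the same rule but were not kept (right), by hours after egg laying (x axis); each point is 1 of 3 samples of a group and lines join group means. In the left panel the 3 *brat* mutant samples at 0 to 1.5 h lie at 9.90 to 10.32 and the wild-type samples at 8.94 to 9.28, while at 4.5 to 6 h the mutant samples lie at 12.08 to 12.36 and the wild-type samples at 12.49 to 12.72.

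A comparison within the mutant samples does not touch the values that chose the genes. From 0 to 1.5 h to 1.5 to 3 h, 141 of the 149 genes rose and 0 fell in *brat* mutant embryos (limma over 5811 expressed genes, FDR 5%), where 12.4% of all tested genes rose and 19.7% fell. The median rise was 1.63, a 3.11-fold increase, against 2.27 in the wild type, and 100 of the genes rose by at least 1.5. Leaving out any 1 mutant replicate number gave 131 to 140 rising genes. Scaling to 81 ribosomal protein genes moved the median of all genes by −0.27 in this step and left 138 rising members, while the split over all tested genes went from 723 up and 1145 down to 401 up and 1609 down.

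The 8 members that did not pass this test were of several kinds. *link* (*CG13333*) was already at 14.23 to 14.85 in the mutant at 0 to 1.5 h, close to its later level of about 15, and changed by 0.52 ± 0.22 (limma adjusted p = 0.083). *CG13159* was likewise high from the start and changed by 0.72 ± 0.39. *CG40910* stayed low, with a change of 0.19 ± 0.24. The remaining 5 changed by 0.56 (*CG7768*), 0.82 (*ImpE2*, known as an ecdysone-inducible gene), 0.83 (*CG32299*), 0.99 (*CG41038*) and 1.12 (*CG32829*). At the other end, 4 of the 5 members with the largest rise in mutant embryos were *TwdlM* (4.68 ± 0.53), *Lcp65Ag1* (3.56 ± 0.59), *TwdlL* (3.23 ± 0.33) and *CG31626* (3.12 ± 0.56), of which *Twdl* and *Lcp* genes encode cuticle proteins. *CG31253* was the fifth, at 2.46 ± 0.30.

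Most members also stayed on in *brat* mutant embryos. From the second to the third collection, 26 rose further and 1 (*CG8929*) fell, where 4.54% and 7.55% of all tested genes did so. Between 1.5 to 3 h and 4.5 to 6 h, 29 rose and 8 fell, with backgrounds of 8.98% and 10.7%. The genes that fell included *CG15628* (−1.41), *CG31253* (−1.37), *CG14111* (−1.22), the scavenger receptor gene *Sr-CII* (−1.16) and the insulin-like peptide gene *Ilp4* (−0.98). The largest later rises were those of *rib* (1.45), which encodes a BTB-domain factor of tracheal and salivary gland development, and the Notch-responsive repressor gene *E(spl)mgamma-HLH* (1.43). These later counts rest on few samples: without *brat* mutant replicate 1 or replicate 2 the further rise to 3 to 4.5 h was called for 0 members, and the rise to 4.5 to 6 h for 1 and 7. The fall to 4.5 to 6 h was called for 0, 3 and 4 members without mutant replicate 1, 2 and 3. From 3 to 4.5 h to 4.5 to 6 h, limma called 0 members in either direction, with backgrounds of 0.172% and 0.241%. At an unadjusted limma p under 0.05, 2 members were higher and 19 lower, where 359 and 303 of the 5811 tested genes were.

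When the same thresholds were applied to the mutant samples, 146 genes met them, of which 89 were members. That is 59.7% of the members and 61% of the mutant list. Of the 60 members that did not meet them, 49 rose by less than 1.5 in the mutant, and in 37 that was the only condition missed. Some genes missed several conditions: 16 of the 60 lay 0.5 or more below their 1.5 to 3 h level at 4.5 to 6 h, 2 did so at 3 to 4.5 h, and 6 had not reached a level of 10.

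The main difference between the genotypes was in the earliest collection. At 0 to 1.5 h, 101 of the 149 genes were higher in *brat* mutant embryos and 0 were lower (limma, FDR 5%), where 4.97% of all tested genes were higher and 3.94% lower. The median difference was 1.13, a 2.19-fold increase, against −0.03 over all tested genes, and the difference was above 0 in 144 of 149. In 114 of the genes every mutant sample lay above every wild-type sample, where 13.5% of all tested genes did so. No member had all mutant samples below the wild type, against 15.8% of all tested genes, and 0 members were lower at an unadjusted p under 0.05. On the log2 scale the difference at 0 to 1.5 h was a median of 47.7% of the wild-type rise, with quartiles of 32.8% and 62%. This is a share of log2 differences and not of RNA amounts. The early wild-type level that chose the genes enters both parts of it, so it is a description only.

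The rule took genes that were low in wild-type embryos at this time, so the wild-type values are not independent of the choice. Choosing the genes on 2 wild-type replicates and reading the difference against the third gave median differences of 1.01, 1.21 and 1.26, positive in 134 of 142, 140 of 145 and 147 of 150 genes. The count of 101 fell to 66 without *brat* mutant replicate 3, to 67 without wild-type replicate 2 and to 76 with dye as a covariate. With 3 samples against 3, an exact permutation test of a single gene cannot go below p = 0.1.

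**Figure D2:**
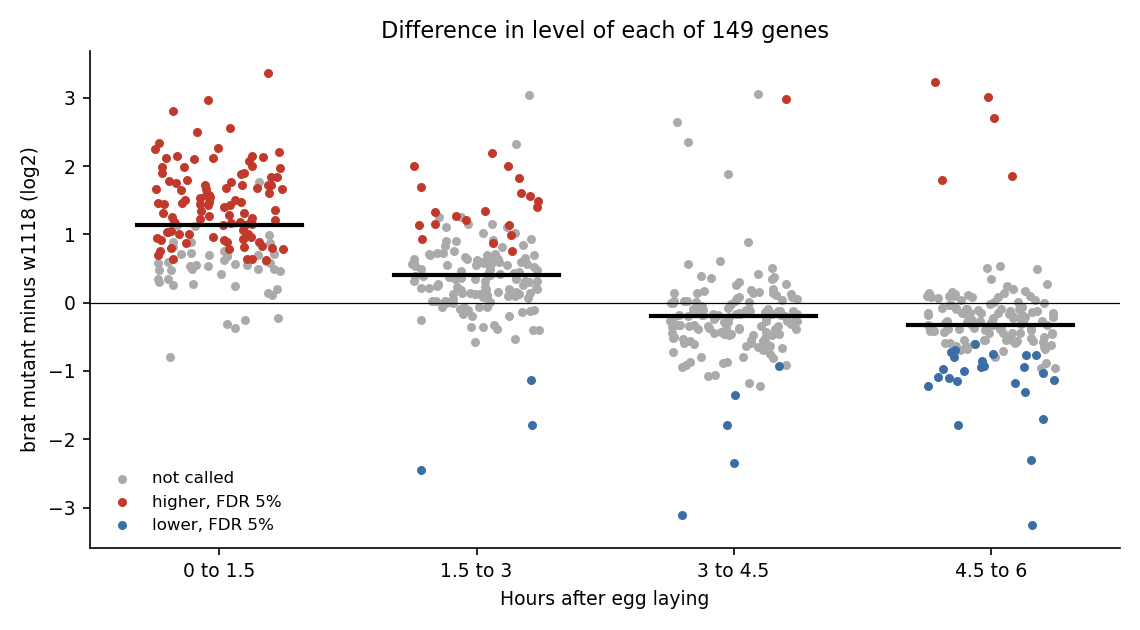
Difference in level between *brat* mutant and wild-type embryos (log2, y axis) of each of the 149 genes at each time point (x axis, hours after egg laying); red and blue points passed an FDR of 5% in limma as higher or lower, grey points did not, horizontal jitter has no meaning, and black bars are medians. The median moves from 1.13 at 0 to 1.5 h through 0.41 and −0.20 to −0.33 at 4.5 to 6 h.

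The largest early differences belonged to *CG13159*, *Cys*, *HmgZ*, *bnb* and *drm*. *Cys* encodes a cystatin-like protease inhibitor. Its level at 0 to 1.5 h was 12.28, 12.20 and 13.22 in the mutant samples and 9.93, 9.13 and 9.75 in the wild type, a difference of 2.96 ± 0.30 or 7.81-fold (limma adjusted p = 0.000664). All mutant samples were higher than all wild-type samples, here and at each later time point, although the differences of 0.56 and 0.54 in the last collections did not pass the test (limma adjusted p = 0.131 and 0.0659). *HmgZ* encodes a high mobility group box chromatin protein. It was at 12.62, 12.04 and 12.32 in the mutant and at 9.80, 8.79 and 9.95 in the wild type, a difference of 2.81 ± 0.29. The groups did not overlap, and the mutant level was about that reached by the wild type one collection later (12.14 to 12.59).

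*bnb*, known for its expression in glia, was at 13.56, 13.29 and 14.40 against 11.31, 10.96 and 11.31, a difference of 2.56 ± 0.27. *drm*, a zinc-finger gene of the odd-skipped family needed for gut development, was at 12.68, 12.57 and 12.86 against 10.67, 9.64 and 10.32, a difference of 2.49 ± 0.25. For both genes all mutant samples were above all wild-type samples. At 1.5 to 3 h *drm* was still higher in the mutant by 1.56 ± 0.26, whereas *bnb* differed by 0.11 ± 0.19.

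Patterning genes of the segmentation cascade were among the members. The gene lists used here and below were chosen with earlier results of these data known, so counts over a list are a description. Of the gap and terminal genes, *Kr* (1.45 ± 0.35), *fkh* (0.94 ± 0.24), *slp1* (0.90 ± 0.18) and *knrl* (0.64 ± 0.17) were higher in the mutant at 0 to 1.5 h, and the head gap gene *oc* differed by 0.47 ± 0.24 (limma adjusted p = 0.259). *Kr*, whose product patterns the middle of the embryo, was at 10.93, 11.16 and 11.63 in the mutant against 10.68, 9.12 and 9.57 in the wild type. The groups did not overlap, but wild-type replicate 1 lay close to the lowest mutant sample. Of 14 listed gap and terminal genes 4 were called higher at this time and 0 lower, and all 4 are members. At this time 67.8% of all members and 4.97% of all tested genes were called higher. Of the pair-rule list, *drm* and *slp1* were higher, and *odd* overlapped between genotypes (0.31 ± 0.33).

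Among segment polarity genes the Hedgehog effector gene *ci* was higher by 1.72 ± 0.24 and the Wnt inhibitor gene *nkd* by 1.46 ± 0.27, while the Hedgehog receptor gene *ptc* overlapped between the genotypes with a difference of 0.48 ± 0.30. The posterior Hox gene *Abd-B* was higher at both 0 to 1.5 h (1.01 ± 0.18) and 1.5 to 3 h (0.93 ± 0.20). The trunk genes *tsh* and *hth*, whose products act with the Hox proteins, were higher by 1.99 ± 0.23 and 1.90 ± 0.18 at 0 to 1.5 h. *tsh* was at 11.41, 10.52 and 10.86 in the mutant and at 8.83, 9.03 and 8.95 in the wild type.

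Both members on the mesoderm list and some of the other dorsoventral patterning genes were higher at 0 to 1.5 h, where 67.8% of all members were. The mesoderm determinant *sna* was at 11.29, 10.07 and 11.54 in the mutant at 0 to 1.5 h and at 9.62, 8.66 and 9.45 in the wild type, a difference of 1.72 ± 0.37. The groups did not overlap, but mutant replicate 2 lay well below the others. The FGF receptor gene *htl* was higher by 0.78 ± 0.18. In the dorsal ectoderm and amnioserosa list, the peptidase gene *Ance* was higher by 2.10 ± 0.23 and the HLH gene *emc* by 0.80 ± 0.19, and the GATA factor gene *srp* differed by 0.69 ± 0.21 (limma adjusted p = 0.0681). The genes that mark the neuroectoderm through Dpp antagonism were split: the repressor gene *brk* was higher by 1.43 ± 0.27, and *sog* differed by 0.61 ± 0.28 with overlapping groups.

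Of 9 members on the list of neuroectoderm and neural precursor genes, 5 were higher early, where 67.8% of all members and 4.97% of all tested genes were. *D*, a SoxB factor gene, was at 12.11, 11.31 and 12.37 in the mutant against 10.28, 9.81 and 9.72 in the wild type (1.99 ± 0.27). The zinc-finger gene *esg* was higher by 1.50 ± 0.21, the proneural gene *l(1)sc* by 1.21 ± 0.18 and its neighbour *sc* by 0.70 ± 0.19. *ac*, another gene of that complex, was at 8.42, 9.08 and 8.18 against 8.59, 8.00 and 8.46, and these groups overlapped. *mira*, which encodes the adaptor that carries BRAT and Prospero in dividing neuroblasts, differed by 0.71 ± 0.23 (limma adjusted p = 0.0878). Over the whole neuroectoderm list, 7 of 18 tested genes were called higher and 0 lower, and 5 of the 7 are members.

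All 6 members on the list of the Enhancer of split and Bearded families were higher at 0 to 1.5 h, where 67.8% of all members and 4.97% of all tested genes were. Both families act in Notch signalling: the HLH proteins repress proneural genes, and the Bearded proteins inhibit Neuralized. *Tom* was at 13.23, 12.77 and 13.67 in the mutant and at 11.75, 10.33 and 10.95 in the wild type (2.21 ± 0.34). *E(spl)m4-BFM* was higher by 2.00 ± 0.27, *E(spl)mgamma-HLH* (listed on the array as *HLHmgamma*) by 1.85 ± 0.24, *E(spl)m5-HLH* (*HLHm5*) by 1.76 ± 0.19, *BobA* by 1.18 ± 0.30 and *Brd* by 1.04 ± 0.26. In the full list 9 of 14 tested genes were higher and 0 were lower. *BobA*, *Tom* and *Brd* lie next to each other on chromosome arm 3L, beside the member *CG13465*, and *E(spl)m4-BFM* and *E(spl)m5-HLH* are neighbours on 3R (gene order of the Release 6 assembly).

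Of 7 members on the list of cell surface and guidance genes, 6 were higher early, where 67.8% of all members and 4.97% of all tested genes were. Over the whole list 12 of 20 tested genes were higher and 0 lower. The immunoglobulin-domain gene *Ama* differed by 2.26 ± 0.22, the Slit receptor gene *robo2* (*lea*) by 2.15 ± 0.29, the leucine-rich repeat gene *trn* by 1.78 ± 0.21, *comm2* by 1.66 ± 0.27, *comm* by 1.29 ± 0.24 and *Lac* by 1.24. The neighbours *comm* and *comm2* control delivery of Robo receptors. The Toll family gene *18w* differed by 0.69 ± 0.26 with non-overlapping groups but did not pass the test. *sli*, the gene of the Slit ligand, was on the array in 2 probe sets, which differed by 1.67 ± 0.35 and 1.50 ± 0.27 (limma adjusted p = 0.0173 and 0.00937). The epidermal factor gene *grh* (1.36 ± 0.21) and the String antagonist gene *trbl* (0.91 ± 0.22) were also higher, and the JAK/STAT feedback gene *Socs36E* overlapped (0.54 ± 0.24).

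**Figure D3:**
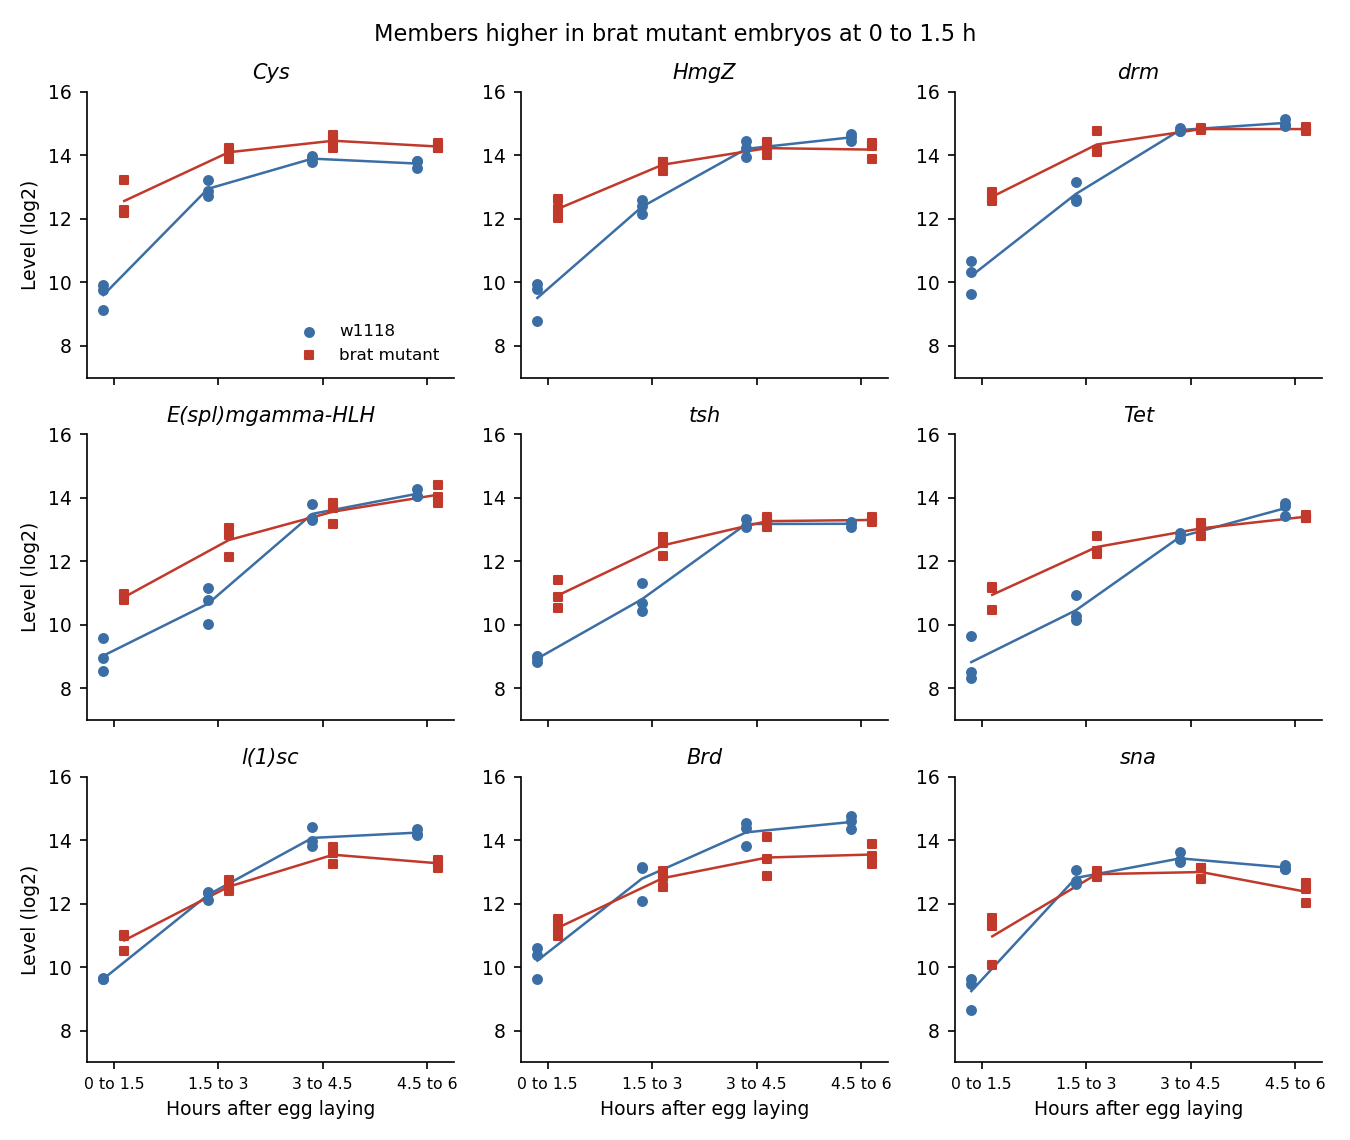
Level (log2, y axis) of 9 members in each sample by hours after egg laying (x axis), with lines through group means of 3 samples. At 0 to 1.5 h every *brat* mutant sample (red squares) lies above every wild-type sample (blue circles) in all 9 panels; *E(spl)mgamma-HLH*, *tsh* and *Tet* are higher at 1.5 to 3 h too, and *l(1)sc*, *Brd* and *sna* end below the wild type at 4.5 to 6 h.

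At 1.5 to 3 h, 20 members were still higher in *brat* mutant embryos and 3 were lower, with backgrounds of 4.15% and 3.55%. The median difference was 0.41, against −0.04 over all tested genes. All 20 had been called higher at 0 to 1.5 h as well, where 1.76% of all tested genes were called higher at both times. Groups did not overlap in 60 members that were higher and in 5 that were lower, against 14.3% and 16.2% of all tested genes. The held-out wild-type replicates gave medians of 0.38, 0.65 and 0.30. The count of 20 rose to 38 in 1 fit of all 24 samples and to 36 with limma-trend, and fell to 9 without *brat* mutant replicate 3 or without wild-type replicate 2. The 3 lower calls fell to 1 without *brat* mutant replicate 1.

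After *CG13159*, the largest of these differences belonged to *E(spl)mgamma-HLH* and *Tet*. *E(spl)mgamma-HLH* was at 12.15, 12.83 and 13.03 in the mutant against 10.03, 11.16 and 10.79 in the wild type (2.01 ± 0.34, limma adjusted p = 0.0125). *Tet* (*CG2083*), which encodes a dioxygenase acting on methylated nucleic acids, was at 12.31, 12.23 and 12.81 against 10.16, 10.95 and 10.26 (2.00 ± 0.27). In both genes the mutant samples stood clear of the wild type, and at 3 to 4.5 h the groups overlapped in both, with differences of 0.07 ± 0.24 and 0.26 ± 0.19.

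*E(spl)m5-HLH* differed by 1.83 ± 0.25 at 1.5 to 3 h and *tsh* by 1.70 ± 0.27. *LanB1*, the laminin B1 chain gene of the basement membrane, differed by 1.60 ± 0.26, *edl*, which encodes an antagonist of ETS factors, by 1.49 ± 0.27, *Ama* by 1.41 ± 0.21, *Ance* by 1.34 ± 0.25 and *HmgZ* by 1.33 ± 0.20. *comm*, *comm2*, *trn* and *Cys* were higher by 1.14 to 1.26. By contrast *Kr* (0.07), *brk* (0.02), *esg* (0.01), *Brd* (0.02) and *sna* (0.12), all higher before, now had overlapping groups. *slp1* lay at −0.13 and *knrl* at −0.19.

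At 3 to 4.5 h the genotypes were close for most members. Limma called 1 higher (*CG13159*) and 5 lower, with backgrounds of 2.17% and 1.48%, and the median difference was −0.20 against −0.05 over all tested genes. The rule also used the wild-type values of this time, keeping genes that stayed high, so these calls are not independent of the choice. Read against the held-out wild-type replicates, the medians were −0.26, −0.19 and −0.23. The 5 lower genes were *CG40910* (−3.11), *CG14111* (−2.35), *CG8654* (−1.79), *ac* (−1.35) and *CG15461* (−0.92). *ac* was at 10.52, 11.24 and 10.45 in the mutant and at 12.09, 11.87 and 12.30 in the wild type, with no overlap. In 44 members all mutant samples lay below the wild type and in 10 above it, against 16.1% and 13.6% of all tested genes. Leaving out *brat* mutant replicate 1 or 3, or any wild-type replicate, left 1 or 2 lower calls. The higher call of *CG13159* was lost without replicate 1 or 3 of either genotype.

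At 4.5 to 6 h more members were lower than higher in *brat* mutant embryos. Limma called 25 lower and 5 higher, with backgrounds of 5.68% and 6.3%. The median difference was −0.33 against −0.09 over all tested genes, and 119 of 149 lay below 0. Here too the rule kept genes with a high wild-type level, so that the choice favours lower mutant values and the calls are not independent of it. Read against the held-out wild-type replicates, the medians were −0.39, −0.26 and −0.31, where those of all genes lay at −0.03. Non-overlapping groups were lower in 68 members and higher in 7, against 20.1% and 15.2% of all tested genes. The count of 25 fell to between 9 and 16 when any 1 replicate was left out, to 14 with no expression filter, to 15 with ribosomal protein scaling and to 13 with dye as a covariate, and rose to 41 with limma-trend. The 5 higher calls fell to 3 without *brat* mutant replicate 2 or 3.

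Of the 9 members on the neuroectoderm list, 5 were lower at this time, where 16.8% of all members and 5.68% of all tested genes were. The 3 genes of the achaete-scute complex among the members were lower: *ac* by −1.22 ± 0.23, *l(1)sc* by −0.96 ± 0.17 and *sc* by −0.77 ± 0.18. *l(1)sc* was at 13.31, 13.36 and 13.13 in the mutant and at 14.16, 14.18 and 14.36 in the wild type, so the groups were well apart. The FGF ligand gene *ths* (−0.80 ± 0.21), *sog* (−0.94 ± 0.25), *sca* (−0.72), which encodes a fibrinogen-related protein of neural precursor spacing, and *Brd* (−1.02 ± 0.21) were lower too. Over the whole neuroectoderm list 8 of 18 tested genes were lower and 0 higher, and 5 of the 8 are members. The 5 Enhancer of split and Bearded members other than *Brd* were not called: *E(spl)mgamma-HLH* differed by −0.03, *BobA* by −0.55 and the rest lay in between.

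Further lower members were *slp1* (−1.01 ± 0.28), *sna* (−0.76 ± 0.20), *Sr-CII* (−1.32 ± 0.26), the dosage compensation gene *msl-2* (−1.17 ± 0.24), the cadherin gene *Cad74A* (−1.14 ± 0.24), *BNIP3* (*CG5059*), which encodes a mitochondrial protein of the mitophagy pathway (−1.09 ± 0.16), and *CG15628* (−1.70 ± 0.25). *Sr-CII* was at 12.20, 12.53 and 11.76 in the mutant against 13.87, 13.42 and 13.15 in the wild type, whereas at 0 to 1.5 h it had been at 11.88, 10.98 and 11.78 against 10.30, 10.31 and 9.37. Its groups were apart at both times, in opposite directions. Groups that stood apart in opposite directions at different times were seen in 57 of the 149 members, against 8.76% of all tested genes. Altogether 13 members were called higher at 0 to 1.5 h and lower at 4.5 to 6 h (0.327% of all tested genes), 69 were called higher at 0 to 1.5 h alone (2.74%), and 31 were called at no time point (75.8%). The wild-type values that chose the genes enter each of these patterns.

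The change of the genotype difference with time was estimated in 1 fit of all 24 samples and is given as an estimate with its SE, without a test, because the wild-type samples also chose the genes. From 0 to 1.5 h to 4.5 to 6 h the difference dropped in 145 of 149 members, by a median of −1.55 (median SE 0.37), where the median of all tested genes was −0.05. Between 0 to 1.5 h and 1.5 to 3 h the median change was −0.69, and from the second to the third collection it was −0.71. *HmgZ* changed by −3.20 ± 0.34 over the whole course, *Sr-CII* by −2.86 ± 0.43, *drm* by −2.69 ± 0.31 and *l(1)sc* by −2.18 ± 0.25. From 0 to 1.5 h to 1.5 to 3 h, *E(spl)mgamma-HLH* changed by 0.16 ± 0.41, *Tet* by −0.12 ± 0.40 and *tsh* by −0.30 ± 0.31, which are within their SE, and the drop of these 3 genes came from the second to the third collection (−1.94, −1.73 and −1.61).

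A few members departed from this course. *CG13159* was the only one called higher at all 4 time points, as were 0.241% of all tested genes. It was at 14.62, 13.34 and 13.08 in the mutant at 0 to 1.5 h against 10.63, 9.59 and 10.74 in the wild type, a 10.3-fold difference (3.36 ± 0.41, limma adjusted p = 0.00109). At 1.5 to 3 h it was at 14.21, 14.35 and 14.64 against 13.70, 11.32 and 11.60, and at 4.5 to 6 h at 14.73, 15.32 and 15.12 against 14.03, 12.51 and 13.24. The mutant samples were higher throughout, and wild-type replicate 1 stood above the other wild-type samples at the second and last of these.

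The cuticle genes *TwdlM*, *TwdlL* and *Lcp65Ag1*, with *CG31626*, were the other 4 members called higher at 4.5 to 6 h, by 3.01 ± 0.68, 1.85 ± 0.25, 3.23 ± 0.29 and 2.71 ± 0.33. None of the 4 was called at 0 to 1.5 h, where *TwdlM* differed by −0.80 ± 0.57. *TwdlM* was at 14.10, 14.35 and 14.22 in the mutant at 4.5 to 6 h and at 9.33, 11.81 and 12.51 in the wild type. Wild-type values of *TwdlM* were also uneven at 1.5 to 3 h, at 13.27, 12.80 and 8.11, and those of *Lcp65Ag1* at 11.83, 11.13 and 7.85. Wild-type replicate 3 was thus the low sample for both genes, and the membership of these genes rests on wild-type groups with a wide spread. Of 15 listed cuticle genes of late embryos 2 (*TwdlF* and *TwdlM*) were expressed. The median over the 15 was 8.62 ± 0.19 in the mutant and 8.23 ± 0.11 in the wild type at 4.5 to 6 h. Sample medians over all transcripts lay between 8.70 and 8.83.

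*CG14111*, *CG8654* and *CG40910* were lower in the mutant from 1.5 to 3 h onward and were not called at 0 to 1.5 h. *CG14111* was at 11.06, 11.74 and 10.24 in the mutant at 1.5 to 3 h against 13.80, 13.15 and 13.45 in the wild type, and at 9.60, 10.24 and 9.54 against 13.09, 13.20 and 12.86 at 4.5 to 6 h, 9.57-fold lower (−3.26 ± 0.23, limma adjusted p = 0.000219). In the mutant it rose to 1.5 to 3 h and was lower again at 4.5 to 6 h. *CG8654* reached 9.88, 10.09 and 9.59 at 3 to 4.5 h against 11.29, 11.85 and 11.78. *CG40910* did not pass the test for a rise in the mutant. Its mutant values lay between 7.75 and 8.74, where sample medians over all transcripts lay between 8.70 and 8.83. The wild type reached 11.46, 10.99 and 11.12 at 3 to 4.5 h. For these 3 genes the groups stood apart without overlap from 1.5 to 3 h on.

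**Figure D4:**
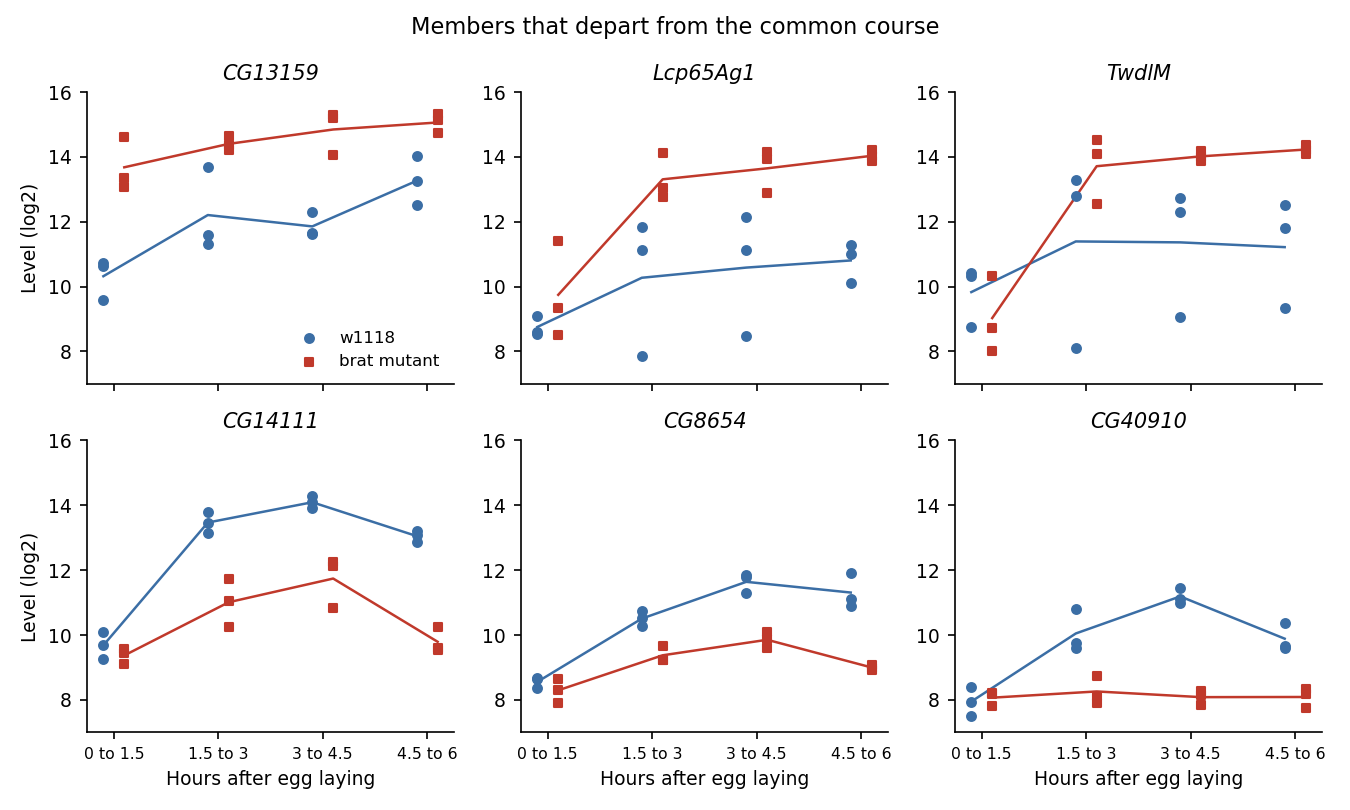
Level (log2, y axis) in each sample of 6 members by hours after egg laying (x axis), with lines through group means of 3 samples. *CG13159* is higher in *brat* mutant samples (red squares) at all 4 time points, *Lcp65Ag1* and *TwdlM* differ most at 4.5 to 6 h and show a wide wild-type spread (blue circles, 7.85 to 11.83 for *Lcp65Ag1* at 1.5 to 3 h), and *CG14111*, *CG8654* and *CG40910* are lower from 1.5 to 3 h.

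Genes that met the same rise and level but were not kept on in the wild type were set beside the members. There were 71 of them, 69 expressed. At 0 to 1.5 h, 15 of these were higher in *brat* mutant embryos and 0 lower, against 4.97% and 3.94% of all tested genes. Their median difference was 0.61, where 101 of the 149 members were higher with a median of 1.13. At 1.5 to 3 h, 0 of the 69 were higher and 20 were lower, against 4.15% and 3.55% of all tested genes. Their median was −0.73, against 20 higher and 3 lower members and a median of 0.41. At 3 to 4.5 h and 4.5 to 6 h the medians were −0.44 and −0.16 against −0.20 and −0.33. In mutant embryos 59 of the 69 rose to 1.5 to 3 h, and 42 fell by 3 to 4.5 h, where 12.4% and 7.55% of all tested genes did so. The difference between the sets was not tested, since the wild-type samples that define the sets enter both.

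Some members were on the study's lists of mRNAs bound by BRAT or by its partner Pumilio (PUM) in 0 to 3 h embryos. Of the 149, 12 (8.05%) were on the BRAT list, against 16.6% of the 5811 expressed genes, and 29 (19.5%) were on the PUM list, against 9.4%. The 12 BRAT-associated members included the achaete-scute complex genes *ac*, *sc* and *l(1)sc*, *bib*, *neur*, *mira*, *comm*, *trbl* and *HmgZ*. They had median differences of 0.86, 0.36, −0.15 and −0.49 over the 4 time points, with 7 of 12 called higher at 0 to 1.5 h, where 67.8% of all members and 4.97% of all tested genes were. The 29 PUM-associated members, among them *Kr*, *ci*, *D*, *hth* and *tsh*, had medians of 1.43, 0.40, −0.25 and −0.36, with 26 of 29 higher at 0 to 1.5 h.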

How the data were processed

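The authors labelled cDNA of each sample with Cy3 or Cy5, hybridized samples to custom NimbleGen arrays and normalized all 24 together by RMA with quantile normalization. The deposited table holds log2 values, 1 per transcript and sample, and no counts, so that the 3 replicates of a group limit the precision. The array pairing of samples is not stated in the sources used here. Of 17775 rows, 6 had no values and were left out. Group, time and dye came from the labels. Dye was not balanced between the genotypes. At each time point mutant replicates 1 and 3 had Cy3 and replicate 2 had Cy5, and the wild-type replicates had the dyes the other way round.

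The members and gene lists were chosen with earlier results of these data known. Rows were averaged per symbol to 14042 genes. A gene counted as expressed (5811 genes) when any of its transcripts exceeded the overall transcript mean in some group (one-sided limma, FDR 5%). Genotypes were compared at each time point, and time points within *brat* mutant samples, with limma 3.58.1 in R 4.3.3 on all expressed genes, with Benjamini-Hochberg adjustment. p-values measure the spread between these biological replicates. Of the 149 symbols, 142 were matched to current RefSeq names (Release 6). Genes named are those members that were on fixed lists, the 5 with the largest difference in each direction per time point among called genes without overlap, the 5 largest and smallest rises in the mutant, and the 5 nearest each side of the thresholds (members within 20 genes of *brat* were to be named too, and there were 0); others given by name were chosen after their values were seen. The BRAT and PUM lists were read from the study's supplementary tables and matched by gene name.

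Alternatives were no expression filter, 1 fit of all samples, ribosomal protein scaling, limma-trend, a replicate block, dye as a covariate, each replicate left out and other forms of the rule. Data were simulated with independent normal noise for each gene and sample, and 200 of 5811 genes were changed by 1. The genotype comparisons recovered 28% to 48% of them with 0 to 4 false calls, and the comparisons within the mutant 48.5% to 55% with 2 to 7. Deviations shared by the genes of a sample were not simulated, so these counts of false calls need not hold for the real data. Promoter sequences were not analysed here. Figures were drawn with matplotlib 3.10.9.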

Additional observations from a re-analysis of the deposited data

Results flagged for a closer look

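The genotype difference had opposite directions at different time points, early above and late below the wild type. The median difference over the 149 genes was 1.13 at 0 to 1.5 h and 0.41 at 1.5 to 3 h, with all mutant sample medians above those of the wild type, and −0.33 at 4.5 to 6 h, with all below. In 57 of the 149 members the *brat* mutant samples were all above the wild-type samples at some time point and all below them at another, against 8.76% of all tested genes. The 23 of these genes that are among the 66 members chosen for naming follow. They are given because their groups did not overlap, and many of the late differences did not pass limma. At an FDR of 5%, 13 of the 149 members were called higher at 0 to 1.5 h and lower at 4.5 to 6 h. Of the genes below that were on fixed lists, only *slp1*, *sna*, *sc*, *l(1)sc* and *Brd* were called lower at 4.5 to 6 h. For the others on those lists, limma adjusted p ran from 0.0679 (*CG13427*) to 0.453 (*drm*) at that time. The rule took genes with a low early and a high later wild-type level, so these directions are not independent of the choice. These differences between time points were not tested. *brat* RNA and maternal marker levels are given at the head of the results, and their part was not tested.

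Of the segmentation genes, *Kr* differed by 1.45 in the first and −0.71 in the last collection, *nkd* by 1.46 and −0.50, and *Abd-B* by 1.01 and 0.93 in the first and second and −0.30 in the last. *slp1* differed by 0.90 in the first and by −0.81 and −1.01 in the third and last, and *drm* by 2.49 and 1.56 in the first and second and −0.19 in the last. *ci* differed by 1.72, 0.57, −0.63 and −0.54 over the 4 collections.

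Of the neural and Notch pathway genes, *l(1)sc* differed by 1.21, 0.26, −0.53 and −0.96 over the 4 collections and *BobA* by 1.18, 0.25, −0.65 and −0.55. *sc* differed by 0.70 in the first and by −0.87 and −0.77 in the third and last. *D* differed by 1.99 and −0.28 in the first and last, *Brd* by 1.04 and −1.02, and *mira* by 0.71 and 0.63 in the first and second and −0.56 in the last.

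Among dorsoventral genes, *sna* differed by 1.72 in the first and by −0.43 and −0.76 in the third and last collections, and *srp* by 0.69 in the first and −0.26 in the last. Among cell surface genes, *18w* differed by 0.69 in the first and by −0.38 and −0.65 in the third and last. *Ama* differed by 2.26, 1.41, 0.38 and −0.27 over the 4, and *robo2* by 2.15 and 0.85 in the first and second and −0.36 in the last.

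*Sr-CII* differed by 1.55 in the first and by −0.79 and −1.32 in the third and last collections, and *CG13427* by 1.88, −0.59 and −0.59 at the same times. *HmgZ* differed by 2.81 and 1.33 in the first and second and −0.38 in the last, and *link* by 2.34, 0.13 and −0.40. *CG7768* differed by 0.79 in the first and −1.10 in the last, and *trbl* by 0.91 and −0.31.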

How the results depend on the processing

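The direction of the median difference over the members was kept at each time point under ribosomal protein scaling and with each replicate left out. Counts of calls moved more, and so did the share of all tested genes that was called. At 1.5 to 3 h, 4.15% of all tested genes were higher, 7.83% in 1 fit of all samples and 5.2% with limma-trend. At 4.5 to 6 h, 5.68% were lower, 8.12% with limma-trend, 3.03% with dye as a covariate and 2.03% to 4.08% with 1 replicate left out. At 0 to 1.5 h, 4.97% were higher, and 2.82% to 5.46% with 1 replicate left out. At 0 to 1.5 h the 101 higher members became 66 to 103 with 1 replicate left out and 76 with dye as a covariate. At 1.5 to 3 h the 20 higher members became 38 in 1 fit of all 24 samples, 36 with limma-trend and 9 to 18 with 1 replicate left out, and the 3 lower members 1 to 3. At 3 to 4.5 h the single higher member became 3 in 1 fit of all samples, 5 with limma-trend, 2 with the replicate block and 0 to 1 with 1 replicate left out. The 5 lower members there became 3 with no expression filter, 3 with the replicate block, 17 in 1 fit of all samples, 19 with limma-trend, 2 with dye as a covariate and 1 to 6 with 1 replicate left out. At 4.5 to 6 h the 5 higher members became 3 to 5 with 1 replicate left out. The 25 lower members became 14 with no filter, 15 with ribosomal protein scaling, 41 with limma-trend, 15 with the replicate block, 13 with dye and 9 to 16 with 1 replicate left out.

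Within the mutant, the 26 members rising from the second to the third collection became 10 with no filter, 15 with ribosomal protein scaling and 0 to 25 with 1 replicate left out, and the 1 falling became 0 with no filter, 2 with the replicate block, 2 in 1 fit of all samples and 0 to 1 with 1 replicate left out. From the second to the last collection, the 29 rising became 17 with no filter and 1 to 29 with 1 replicate left out, and the 8 falling became 4 and 0 to 4. From the third to the last, the 0 falling became 4 in 1 fit of all samples, 3 with limma-trend and 1 with the replicate block. Of all tested genes, 4.54% rose from the second to the third collection, and 0.0344% to 4.94% with 1 replicate left out. From the second to the last, 8.98% rose, and 1.6% to 7.78% with 1 replicate left out. A wild-type rise of at least 2 left 94 members. The cause of these changes was not tested.

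Replicate numbers were not taken to pair the samples: deviations from group means correlated at −0.09 to 0.17 between same-numbered samples of the genotypes and at −0.13 to 0.13 between others. Same-numbered mutant samples of different time points correlated at −0.01 to 0.23, above 0 in 17 of 18 pairs. With the replicate block 98 members were higher at 0 to 1.5 h. Of 145 differences called for named genes, 112 to 141 kept their call under the alternatives that apply to all of them. Of the 84 between genotypes, 61 kept it with dye as a covariate and 56 to 61 with 1 wild-type replicate left out. None turned direction under any of these. With 3 samples a group, no depth is known for arrays, and low genes near the lowest values of the array are the least certain.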

Other observations

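Neighbouring members were not limited to the Notch-responsive clusters. Members that lie next to each other in the Release 6 gene order included *salm* and *sala*, *comm2* and *comm*, *KP78a* and *KP78b*, *ac*, *sc* and *l(1)sc*, and *ogre* and *bou* (*CG14430*). Neighbours did not always show the same early difference. *sala* differed by 1.98 at 0 to 1.5 h and its neighbour *salm*, which encodes a zinc-finger factor, by 0.69 with overlapping groups, while *KP78a* and *KP78b*, a pair of protein kinase genes, differed by 1.57 and 1.75. The gap junction genes *ogre* (1.79) and *Inx3* (2.15) were both higher early. *bib*, which encodes a membrane protein of the neurogenic pathway, differed by 2.12, the neurogenic gene *neur* by 0.80, and the epidermal growth factor receptor gene *Egfr* by 1.48 ± 0.22.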
